A study of Homo sapiens with 6 samples.

Results

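Collagens are secreted or membrane-bound proteins of the extracellular matrix, each built of α chains that wind into a triple helix, and every chain has a gene of its own. The genes described here are those whose symbol has the form COL, a number, A and a number. They were taken from all probe sets annotated to a single gene, which gave 73 probe sets for 32 genes among 22277 probe sets in all. Of these, 18 probe sets of 11 genes were brighter than the median of all values (52.5) on 3 or more of the 6 arrays and were tested.

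The arrays measured RNA of PC3, an established prostate cancer cell line that came from a bone metastasis. A set of 3 arrays was labelled control (replicates 1 to 3) and another set of 3 was labelled PSMA (replicates 4 to 6). The cells labelled PSMA were transfected with pLNCX-PSMA, a plasmid for prostate-specific membrane antigen (PSMA), a folate- and glutamate-releasing carboxypeptidase encoded by FOLH1. The control cells are called wild type in one label and vector only in another. Both kinds of cells were grown in RPMI medium, and the treatment protocol names FuGENE 6 as the transfection reagent and puromycin for selection. For all 6 arrays the same amounts and times are given: 3 µg of plasmid, 2 µg of FuGENE, 30 min of transfection and 72 h of recovery. The amount of total RNA was 2 µg for each array. Whether a line was 1 clone or a pool is not given in the sources used here. Nothing in the labels ties the replicates to separate cultures, so p-values cover the spread between these arrays and possibly no more than technical error.

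Signal of FOLH1 ran against the labels. Its brightest probe set, shared with the paralog FOLH1B, read 417 to 548 on the arrays labelled control and 8.58 to 15.1 on those labelled PSMA, and on 4 of 4 probe sets annotated to FOLH1, alone or shared, each control array was above each PSMA array. Directions below follow the deposited labels: "rose" and "higher" mean higher on the arrays labelled PSMA. Whether the labels were exchanged was not tested; if they were, every direction given here, and each ranking of rises and falls, would turn. All 6 epithelial and PC3 markers examined (KRT8, KRT18, KRT19, EPCAM, CDH1 and VIM) were above the filter, with a summed level of 19861 to 20571 on arrays labelled control and 17342 to 17945 on arrays labelled PSMA. KLK3 and KLK2, which PC3 cells lack, were below it. So were 8 of 8 fibroblast markers other than collagens (summed level 159 to 169 and 142 to 148), 4 of 4 leucocyte markers (43.7 to 49.8 and 49.5 to 53.2) and 4 of 4 osteoblast markers with a probe set (48.0 to 51.9 and 46.02 to 50.4). Of 5 endothelial markers PECAM1 alone passed, and their summed level was 95.4 to 108.7 on arrays labelled control and 125.8 to 138.9 on arrays labelled PSMA; the part of these cell type markers in the results was not tested. In such bulk RNA, fewer cells with a transcript and less transcript per cell cannot be told apart.

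Fibrillar collagens form the banded fibres of connective tissue. Type IV collagens form the sheet-like network of basement membranes, on which epithelia rest; their genes lie in pairs that start next to each other and run in opposite directions. Type VI collagen forms beaded filaments close to cell surfaces, FACIT collagens sit on the surface of fibrils, and transmembrane collagens are held in the cell membrane.

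Stretches of DNA before the starts of some of the genes that differed were read from RefSeq (assembly GRCh38.p14), which held a promoter for 8 of the 11 tested chains. They are shown because both type IV pairs moved together within each pair, and because COL6A3 and COL13A1 rose. COL4A1 and COL4A2 start 126 bases apart on chromosome 13 (chr13:110307158-110307283, plus strand, shown whole), whereas 379 bases separate COL4A5 from the nearer start of COL4A6 on chromosome X. For COL4A5 (chrX:108439588-108439837, plus strand), COL6A3 (chr2:237414165-237414414, minus strand) and COL13A1 (chr10:69801656-69801905, plus strand), the 250 bases before the start site are given. The bases next to the start of COL4A6, the chain that differed most by brightest probe set, are not among them. The gap between COL4A5 and COL4A6 was thus searched in part only. Capitals mark the letters of 4 promoter elements, each sought on both strands. A GC box, bound by SP1 factors, was read as GGGCGG. The site of the factor NF-Y was read from the letters CCAAT that give it its name. For the element that places the start of transcription the letters were TATAAA. Repressors of the ZEB and SNAI families bind E-boxes, read here as CACCTG.
COL4A1-COL4A2: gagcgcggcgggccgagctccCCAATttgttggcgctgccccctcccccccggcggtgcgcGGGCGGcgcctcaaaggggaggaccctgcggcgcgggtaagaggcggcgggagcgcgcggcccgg
COL4A5: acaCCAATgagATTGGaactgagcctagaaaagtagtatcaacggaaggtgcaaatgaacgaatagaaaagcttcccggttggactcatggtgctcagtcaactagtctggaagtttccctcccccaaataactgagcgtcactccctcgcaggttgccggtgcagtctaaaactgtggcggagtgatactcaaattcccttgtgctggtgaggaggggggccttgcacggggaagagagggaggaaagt
COL6A3: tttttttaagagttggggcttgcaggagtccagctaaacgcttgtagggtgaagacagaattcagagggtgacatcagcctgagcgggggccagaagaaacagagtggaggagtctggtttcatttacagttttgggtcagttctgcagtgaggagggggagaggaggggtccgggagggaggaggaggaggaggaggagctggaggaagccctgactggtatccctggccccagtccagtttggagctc
COL13A1: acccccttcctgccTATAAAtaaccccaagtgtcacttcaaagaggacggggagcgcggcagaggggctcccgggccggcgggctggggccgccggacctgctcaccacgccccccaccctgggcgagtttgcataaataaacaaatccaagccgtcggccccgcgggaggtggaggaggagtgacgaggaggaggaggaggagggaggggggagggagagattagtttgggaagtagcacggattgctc
The stretch shared by COL4A1 and COL4A2 held 1 GC box and 1 CCAAT box, which 34.6% and 21.9% of the promoters of 27305 genes hold within the same length, and 80.2% of its bases were G or C. The COL4A5 stretch held 2 matches to CCAAT (at least 1 is found in 33.04% of promoters over 250 bases) and the COL13A1 stretch 1 match to TATAAA (11.1%). In both stretches the matches lie at the end farthest from the start site. Whether they act on that start was not tested. None of the 4 motifs was found in the COL6A3 stretch, and the E-box was in none of the 4 stretches (17.5% of promoters over 250 bases and 8.83% over 126 bases hold it). In G and C content COL4A5 (51.2%) and COL6A3 (56.0%) were below the median of 58.0% over all promoters and COL13A1 (64.0%) was above it. A match describes letters only and shows no binding.

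Of the 11 chains above the filter, 6 rose, 3 fell and 2 did not pass the test (limma, Benjamini-Hochberg adjusted p under 0.05 over all probe sets tested). The background was high: 62.4% of all 7035 genes passed, 29.6% higher and 32.8% lower, each gene being read by its brightest tested probe set, as are the chains. By probe set, 10 of the 18 rose, 4 fell and 4 did not pass, against 60.6% of all 11303 probe sets past the threshold (28.2% higher and 32.4% lower). The median log2 difference was 0.40 over the 11 chains and -0.01 over all genes tested. A difference of 2-fold or more was seen for 4 chains, namely COL6A3, COL4A1, COL4A2 and COL4A6, and for 4.41% of all genes (1.89% higher and 2.52% lower). The values of the 2 groups did not overlap for 9 of 11 chains, while 69.5% of all genes had groups that did not overlap. These counts describe chains and probe sets that passed a filter on brightness, and COL4A6 passed it through the control arrays alone. Among the 10 probe sets that rose, COL1A1 202310_s_at passed it through the PSMA arrays alone, so those 2 could only be counted as differing in the direction they did.

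**Figure D1:**
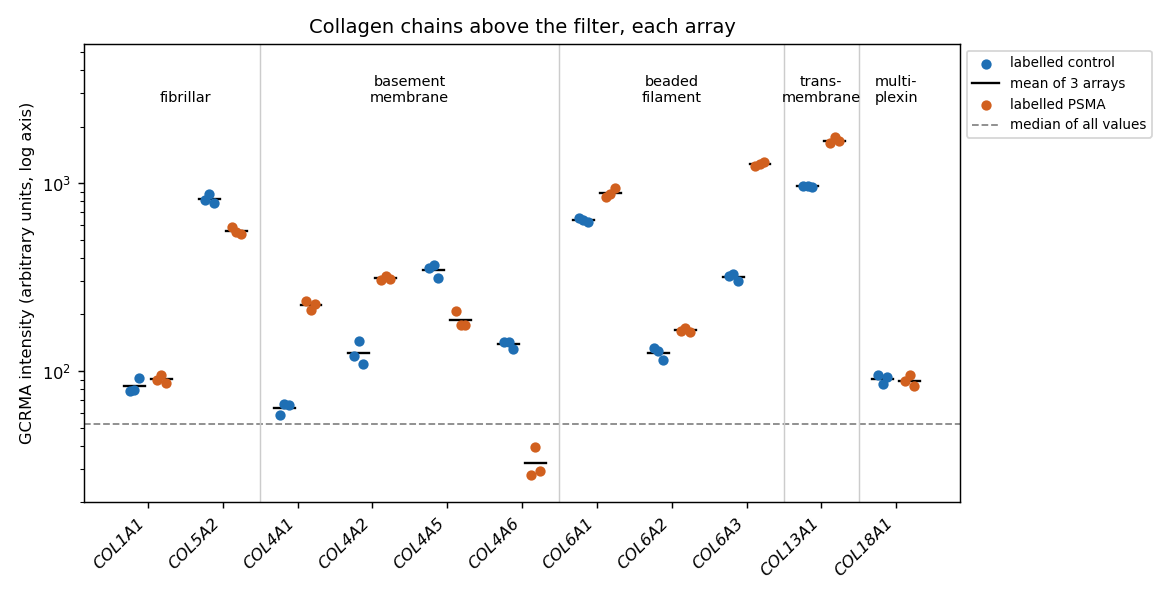
Intensity of the 11 collagen chains above the filter on each of the 6 arrays, on a log axis in arbitrary units, by collagen type; points are arrays, short bars the mean of 3 arrays and the dashed line the median of all values (52.5). COL4A1, COL4A2, the 3 type VI chains and COL13A1 are higher on arrays labelled PSMA, COL4A5, COL4A6 and COL5A2 are lower, and the groups overlap for COL1A1 and COL18A1; levels of different genes come from different probes and are not comparable.

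Among the basement membrane collagens, the chains of one pair rose and those of the other fell. COL4A1 and COL4A2 encode the chains of the common type IV trimer, found in nearly all basement membranes. COL4A1 (chromosome 13, 110148963 to 110307157) read 58.6, 66.7 and 65.6 on the arrays labelled control and 237, 211 and 228 on those labelled PSMA. Every array labelled PSMA stood far above every array labelled control, a 3.54-fold rise (log2 difference 1.82, SE 0.07, limma adjusted p = 2.4e-07). A second COL4A1 probe set, below the filter, went the same way, from 23.1 to 27.9 up to 44.8 to 53.2.

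COL4A2 (chromosome 13, 110307284 to 110513209) read 120.4, 145 and 109 on arrays labelled control and 307, 322 and 307 on arrays labelled PSMA, 2.52-fold higher (log2 difference 1.33, SE 0.09, limma adjusted p = 8.1e-06). Its groups did not overlap either, and the gap exceeded the spread among the control arrays, the wider of both groups. Its other probe set was dim, at 11.8 to 14.1 and 14.4 to 22.7, and was not tested.

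COL4A5 and COL4A6 encode chains of a second kind of type IV trimer, present in fewer basement membranes, such as those under smooth muscle and some epithelia. COL4A5 (chromosome X, 108439838 to 108697545) read 354, 368 and 314 on the arrays labelled control and 208, 176 and 176 on the arrays labelled PSMA. The lowest control array was well above the highest array labelled PSMA, and the gene was 1.85-fold lower there (log2 difference -0.89, SE 0.08, limma adjusted p = 3.8e-05).

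COL4A6 (chromosome X, 108155614 to 108439458) read 144, 144 and 131 on control arrays but 28.05, 39.7 and 29.5 on PSMA arrays, 4.34-fold lower (log2 difference -2.12, SE 0.12, limma adjusted p = 2.4e-06). It was above the median of all values only on the arrays labelled control. Of its other probe sets, both below the filter, one fell in the same way, from 44.1 to 52.7 down to 12.9 to 18.9. The other stayed near background, at 11.6 to 14.3 and 11.7 to 14.5. COL4A3 and COL4A4, whose chains join that of COL4A5 in the glomerulus and the lung, were dim on all 8 of their probe sets (4.93 to 12.5).

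The size of the change of trimer partners was compared within arrays, for 5 pairs of brightest probe sets chosen with their values known, by a two-sided exact permutation test. Its smallest possible p with 3 arrays against 3 is 0.1, so no pair can pass, and the values are a description. The rise of COL4A1 exceeded that of COL4A2 by 0.49 on the log2 scale (SE 0.14, exact permutation p = 0.1, 0.125 after Benjamini-Hochberg adjustment over the 5 pairs). The dim second COL4A1 probe set rose by less than the brightest COL4A2 one (0.99, in the fit without a filter). In that fit the dim second COL4A2 probe set gave 0.45 and did not pass (limma adjusted p = 0.0733). COL4A6 fell further than COL4A5, by 1.23 (SE 0.21, exact permutation p = 0.1, adjusted 0.125), or by 0.85 when 16 was added to every value.

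All 3 type VI chains measured were higher on arrays labelled PSMA, by 1.32-fold to 3.998-fold on their brightest probe sets. COL6A3 encodes the longest chain, with many repeats of a von Willebrand factor domain at its start, and lies on chromosome 2 (237324018 to 237414164). It read 322, 327 and 302 on the arrays labelled control and 1239.9, 1271 and 1292 on the arrays labelled PSMA. By brightest probe set this was the largest rise among the 11 chains, 3.998-fold (log2 difference 2.00, SE 0.05, limma adjusted p = 3.5e-08), with each group spread by a small part of the gap between them.

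COL6A1, whose gene lies beside COL6A2 on chromosome 21, read 651, 637 and 622 on control arrays and 844, 872 and 939 on PSMA arrays (1.39-fold, log2 difference 0.47, SE 0.05, limma adjusted p = 9.6e-05). The groups were apart, although the rise was small. Of its 8 probe sets 3 were tested: a second one agreed in size (0.50) and the third gave 0.17, which did not pass (limma adjusted p = 0.0541, 0.0202 to 1 over the alternatives). The remaining 5 were dim, between 5.61 and 45.8. COL6A2 read 132, 128 and 115 on arrays labelled control and 164, 169 and 161 on arrays labelled PSMA, 1.32-fold higher (log2 difference 0.40, SE 0.06, limma adjusted p = 0.00053). Its second probe set, just below the filter, read 50.8, 49.1 and 42.2 on control arrays and 44.9, 47.6 and 48.7 on PSMA arrays, so its groups overlapped and it did not pass in the fit without a filter (log2 difference -0.0069, limma adjusted p = 0.964).

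The rise of COL6A3 exceeded that of COL6A1 by 1.53 (SE 0.04) and that of COL6A2 by 1.599 (SE 0.04) on the log2 scale, each with an exact permutation p of 0.1 (adjusted 0.125), the smallest possible, so these too are a description. COL6A1 and COL6A2 differed in their rise by 0.07 (SE 0.07, exact permutation p = 0.5), with overlapping groups. Against a minimum fold of 1.5 neither COL6A1 nor COL6A2 passed, whereas COL6A3 did.

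COL13A1 encodes a transmembrane collagen of cell-matrix junctions, and was the one gene of that class found by the rule. It lies on chromosome 10 (69801906 to 69959144) and read 966, 960.4 and 954 on arrays labelled control and 1629, 1752 and 1666 on arrays labelled PSMA. That is a 1.75-fold rise (log2 difference 0.81, SE 0.05, limma adjusted p = 2.3e-06) between groups that lay far apart relative to their spread. Its other probe sets are of the kind that Affymetrix marks as open to cross-hybridisation, and both rose, by 0.68 and 0.52.

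Fibrillar chains were mostly dim: of 9 genes, 7 had no tested probe set. COL5A2 encodes a chain of type V collagen, which starts fibrils and limits their width. It read 811, 876 and 779 on arrays labelled control and 584, 549 and 539 on arrays labelled PSMA, 1.47-fold lower (log2 difference -0.56, SE 0.06, limma adjusted p = 6.4e-05), with no overlap. Its second probe set fell by 0.76, from 672, 677 and 674 to 393, 408 and 397. Against a minimum fold of 1.5 the brighter probe set no longer passed.

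COL1A1, the major chain of type I collagen, gave different answers on its 4 probe sets. The brightest, 217430_x_at, is also of the kind marked as open to cross-hybridisation. It read 78.5, 79.1 and 91.7 on control arrays and 90.0, 94.9 and 86.5 on PSMA arrays, and did not pass (log2 difference 0.13, SE 0.07, limma adjusted p = 0.152). Probe set 202310_s_at read 25.1, 22.6 and 21.1 on arrays labelled control and 91.0, 104 and 113 on arrays labelled PSMA, a log2 difference of 2.16 (SE 0.09), and it passed the filter through the latter arrays alone. Probe set 202312_s_at was flat, at 23.9, 22.2 and 20.9 and then 23.4, 23.5 and 20.3, and 202311_s_at stayed near background (7.64 to 7.91 and 8.20 to 10.7). The high signal on arrays labelled PSMA was thus seen on 1 of 4 probe sets. The call for the gene depends on how they are combined. The mean of the tested probe sets gave 1.14 (limma adjusted p = 4.9e-07). The brightest one gave 0.20 and passed without control replicate 3 (limma adjusted p = 0.0149), and it passed in no other alternative.

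COL18A1 encodes a basement membrane proteoglycan of the multiplexin class, whose C-terminal fragment is endostatin. It read 94.9, 85.2 and 93.1 on the arrays labelled control and 88.8, 95.2 and 83.1 on the arrays labelled PSMA (log2 difference -0.03, 95% interval -0.18 to 0.12, limma adjusted p = 0.678). The groups overlapped on this probe set and on the other (-0.04, adjusted p = 0.809), where PSMA replicate 6 read 105 and replicates 4 and 5 read 73.1 and 83.2.

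**Figure D2:**
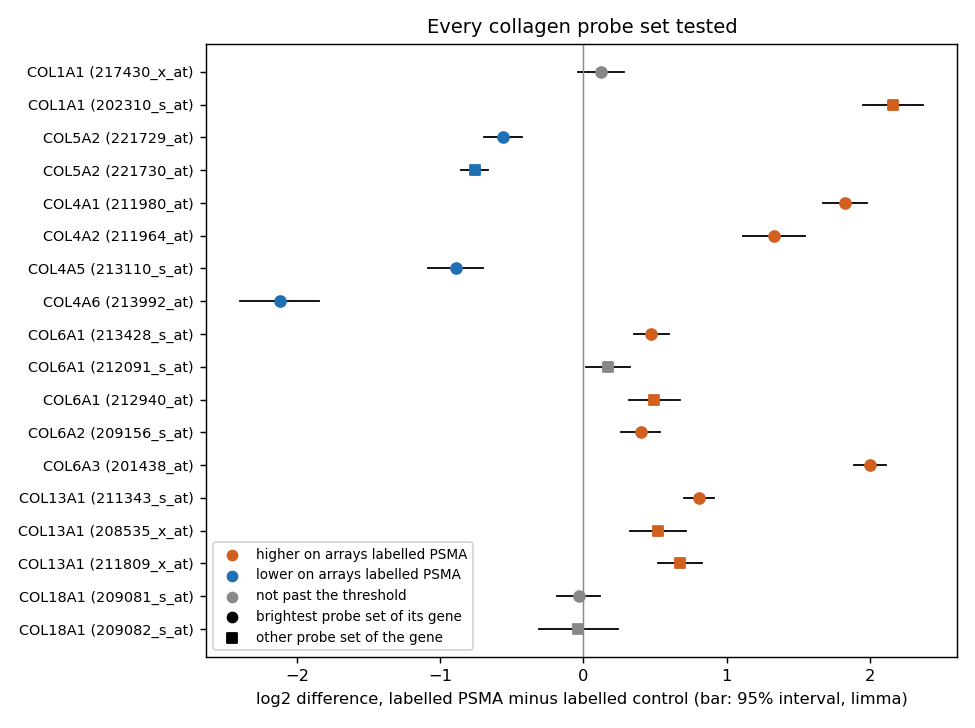
Log2 difference, arrays labelled PSMA minus arrays labelled control (3 each), for each of the 18 tested collagen probe sets, with 95% intervals from limma; circles are the brightest probe set of a gene and squares the others. COL4A5, COL4A6 and COL5A2 lie left of 0, and the COL1A1 probe sets are far apart, at 0.13 and 2.16.

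The other 21 genes had no probe set above the filter. They were the fibrillar chains COL1A2, COL2A1, COL3A1, COL5A1, COL5A3, COL11A1 and COL11A2, the basement membrane chains COL4A3 and COL4A4, and the FACIT chains COL9A1, COL9A2, COL9A3, COL14A1, COL16A1, COL19A1 and COL21A1. The rest were the short-chain network genes COL8A1, COL8A2 and COL10A1, COL7A1 of the anchoring fibrils under the epidermis, and the multiplexin COL15A1. Their 43 probe sets read between 4.32 and 49.97 on all arrays. COL1A2, the partner of COL1A1 in type I collagen, read 14.2 to 19.6 on its brighter probe set. Its dimmer one read 6.17 to 6.73 on control arrays and 7.84 to 9.87 on PSMA arrays. The 4 probe sets of COL3A1 read 5.58 to 14.8.

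Fitted without the filter, 11 of these 43 dim probe sets passed, 8 higher and 3 lower on arrays labelled PSMA, where 32.0% of all probe sets passed (15.9% higher and 16.1% lower). The groups did not overlap on 11 of the 43, against 44.9% of all probe sets. COL5A1, a partner of COL5A2 in type V collagen, accounted for 3 of the 8. Its probe sets read 13.8, 12.1 and 14.9, then 32.3, 26.6 and 25.7; 9.94, 8.89 and 10.9, then 18.6, 16.8 and 16.9; and 15.7, 19.8 and 17.9, then 25.9, 24.98 and 29.6. Each of them was higher on every array labelled PSMA (log2 differences 1.05, 0.82 and 0.60). COL7A1 was higher on both of its probe sets (0.63 and 0.46), and COL1A2 (0.40), COL4A3 (0.30) and COL14A1 (0.30) were higher on 1 each. The other probe sets of COL1A2, COL4A3 and COL14A1 did not pass. COL2A1 (-0.61), COL9A3 (-0.48) and COL16A1 (-0.37) were lower on 1 each. The other COL2A1 probe set (-0.29) did not pass, and COL9A3 and COL16A1 had no other. Values this low depend on the background correction, whose part in these differences was not tested.

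**Figure D3:**
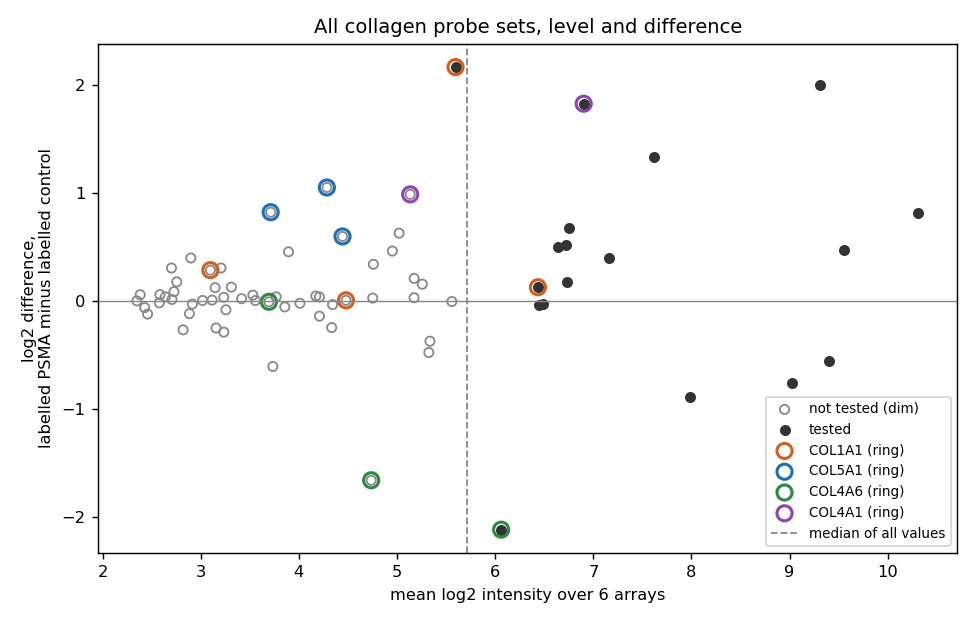
All 73 collagen probe sets by mean log2 intensity over the 6 arrays (horizontal) and log2 difference, arrays labelled PSMA minus arrays labelled control (vertical); filled points were tested, open points were too dim, and rings mark the probe sets of 4 genes. The dim COL5A1 probe sets lie at 0.60 to 1.05, and of the COL1A1 probe sets only 1 lies far from 0.

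Of the 73 probe sets, 53 were above the median of all values on 0 arrays and 16 on all 6, and levels ran close to the limit of 52.5 on either side, with COL6A2 213290_at reaching 50.8, COL9A3 49.97 and COL4A1 starting at 58.6. Just inside it, on exactly 3 arrays, were COL1A1 202310_s_at and the brightest COL4A6 probe set. Just outside, on 1 array, were the second COL4A1 probe set and the second COL4A6 probe set, given above.

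The tested genes nearest to several chains shifted in the same direction. Over all genes 29.6% were higher and 32.8% lower, and neighbours are to be read beside these shares. Of the 10 nearest tested genes around COL4A1 and COL4A2 (5 on each side, other collagens left out), 10 were higher on arrays labelled PSMA, with a median log2 difference of 0.82 (0.37 to 1.86). COL4A1 (1.82) was thus within the range of its neighbours. Around COL6A3, 8 of 10 were higher (median 0.62, -0.44 to 2.70), and around COL13A1 9 of 10 were higher (median 0.33, 0.10 to 0.75), below the value of the chain itself (0.81). Nearest tested genes need not be adjacent: the 10 spanned 8.09 Mb around COL4A1 and COL4A2, 3.11 Mb around COL6A3 and 1.32 Mb around COL13A1. For the other chains the span was 0.83 to 5.75 Mb.

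The 10 genes around COL4A5 and COL4A6 had a median of -0.15, with 5 lower, 0 higher and 5 not past the threshold. COL4A6 (-2.12) fell much further than the lowest of them (-0.83). COL4A5 (-0.89, SE 0.08) lay below that neighbour by less than its own SE. Neighbours of COL6A1 and COL6A2 had a median of -0.03, with 2 higher and 4 lower. COL5A2 (-0.56) lay within the range of its neighbours (median -0.10, -0.74 to 0.94), of which 2 were higher and 2 lower. COL1A1 (0.13) and COL18A1 (-0.03) were close to the medians of theirs (0.13, with 6 higher and 2 lower, and -0.06, with 2 higher and 5 lower). The part of neighbouring genes in the differences of the chains was not tested.

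**Figure D4:**
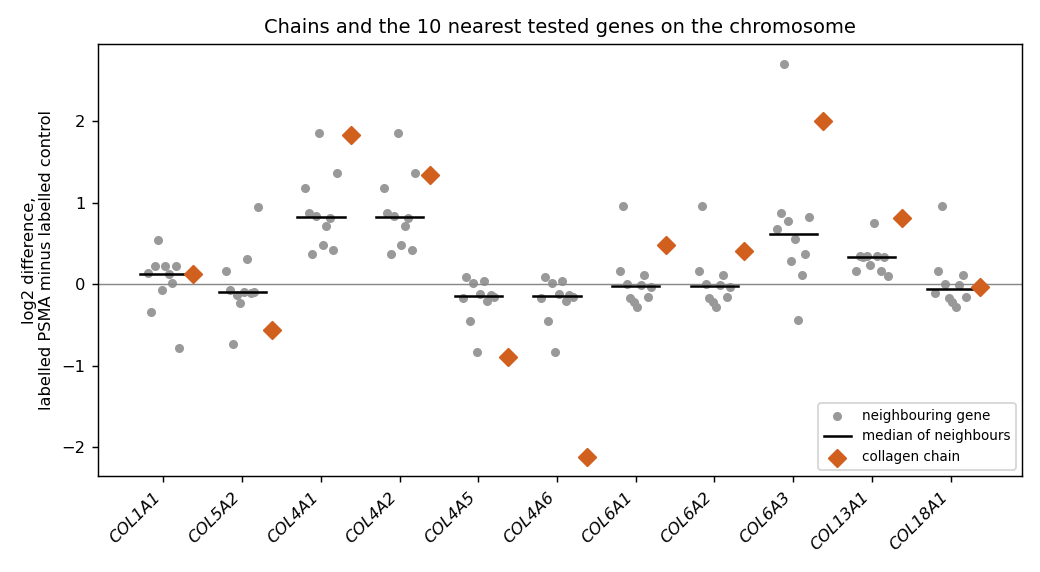
Log2 difference, arrays labelled PSMA minus arrays labelled control, of each tested chain (diamond) and of the 10 nearest tested genes on its chromosome (grey points; bar: their median). All neighbours of COL4A1 and COL4A2 lie above 0, while COL4A6 lies far below every neighbour of its own and COL4A5 only just below the lowest.

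Genes that make, bind or cut collagens were read from 4 lists of 59 genes in all, of which 52 had a single-gene probe set and 34 were tested. Of the 34, 12 rose, 12 fell and 10 did not pass, and 0 reached 2-fold; among all genes 62.4% passed, 29.6% higher and 32.8% lower, and the counts of each list are to be read beside these shares. No list was tested as a whole. The median log2 difference was 0.02. With a minimum fold of 1.5, MRC2 was the 1 gene of the 34 that still passed.

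Of 17 tested enzymes and chaperones that modify and fold the chains inside the cell, 9 fell, 3 rose and 5 did not pass (median -0.18), against 32.8% of all genes lower and 29.6% higher. PLOD2, a lysyl hydroxylase that sets the kind of cross-link, read 2188 ± 158 on control arrays and 1409 ± 67.2 on PSMA arrays (SD, n = 3). Its log2 difference was -0.63 (SE 0.06, limma adjusted p = 6.0e-05). FKBP14, a prolyl isomerase of the endoplasmic reticulum, fell by 0.52. P3H2, a prolyl 3-hydroxylase that acts on type IV collagen, rose from 40.5 ± 2.84 to 62.8 ± 3.87 (log2 difference 0.63, SE 0.07, limma adjusted p = 7.1e-05), and passed the filter through the latter arrays alone. MIA3, which loads collagen into transport carriers, rose by 0.19 (limma adjusted p = 0.0278, and 0.0149 to 1 over the alternatives). Its call was lost without control replicate 1, PSMA replicate 4 or PSMA replicate 6. It was also lost in the fit without a filter (limma adjusted p = 0.0798) and against a minimum fold of 1.5.

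Of 7 tested genes for propeptide removal and cross-linking 3 rose, 1 fell and 3 did not pass (median 0.16), a share called near the 62.4% of all genes. TGM2, a transglutaminase that joins matrix proteins, went from 472 ± 7.90 to 754 ± 58.5 (SD, n = 3). Its log2 difference was 0.67 (limma adjusted p = 3.1e-05) on the brightest of 3 tested probe sets (0.37 to 0.67). LOXL1, an enzyme of the lysyl oxidase family, rose by 0.52, and PCOLCE2, an enhancer of procollagen processing, fell by 0.40.

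Among 5 tested receptors 3 rose, 1 fell and 1 did not pass (median 0.19), where 29.6% of all genes were higher and 32.8% lower. MRC2, an endocytic receptor that takes up collagen, read 112 ± 8.96 on control arrays and 205 ± 8.59 on PSMA arrays (SD, n = 3; log2 difference 0.88, limma adjusted p = 1.1e-05). ITGA2, the α subunit of a collagen-binding integrin, rose by 0.61, and CD44 fell by 0.25 on the brightest of 7 probe sets (-0.69 to -0.25).

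Of 5 tested proteases 3 rose, 1 fell and 1 did not pass (median 0.24), against the same shares of all genes. MMP1, a collagenase that cuts fibrillar collagens, went from 95.9 ± 7.26 to 54.9 ± 3.01 (SD, n = 3), a log2 difference of -0.80 (limma adjusted p = 2.0e-05). It was above the median of all values on 5 arrays. The lysosomal proteases CTSL and CTSB rose by 0.37 and 0.26.

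**Figure D5:**
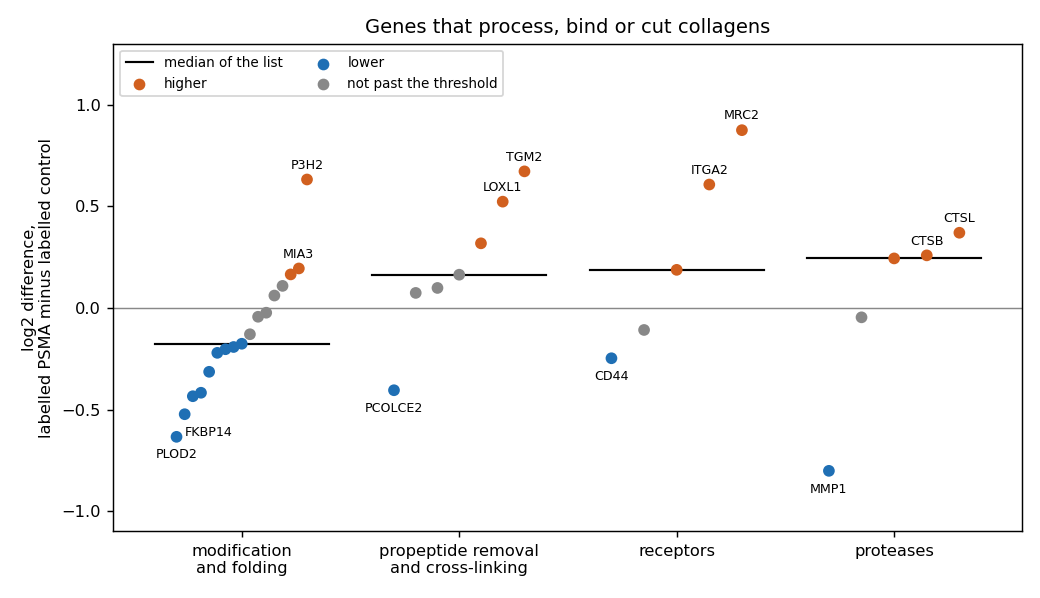
Log2 difference, arrays labelled PSMA minus arrays labelled control, of the 34 tested genes that process, bind or cut collagens, by list; each point is a gene, the bar is the median of its list and grey points did not pass limma's test. The list of modification and folding has its median at -0.18 and the other 3 have theirs between 0.16 and 0.24, and the difference between lists was not tested.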

How the data were processed

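The deposited values are intensities, 1 for each Affymetrix probe set and array, which the authors computed by GCRMA, per the submitters' processing notes; its version and the scale are not given in the sources used here. GCRMA corrects background by probe composition, normalizes across arrays and pulls dim probe sets to a low common level. Values ran from 3.76 to 17455 with array medians of 51.7 to 52.9, so they were read as linear. Arrays carry no counting depth, and their number (3 a group) limits precision.

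Here values were log2-transformed with no pseudocount. Dropping 62 control probe sets and those that exceeded the overall median (52.5) on fewer than 3 arrays left 11303 probe sets. limma 3.58.1 in R 4.3.3 (lmFit, eBayes) was fitted on these, with two-sided p-values adjusted over all of them by Benjamini-Hochberg at 0.05. Each of 7035 genes was read by its brightest tested single-gene probe set. Genes came from the platform annotation. Of 19064 single-gene probe sets, 19058 were found in RefSeq by gene identifier and took the symbol used there. Collagen members were chosen by the platform symbol. The fit was tested on simulated data, and Python 3.11.15 made summaries and plots. Collagen types, partner lists and alternatives, like the members, were chosen with earlier results of these data known. All tested chains are named, and in each partner list the 2 largest rises and the 2 largest falls past the threshold. The groups share no replicate number.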

Additional observations from a re-analysis of the deposited data

How the results depend on the processing

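Over 16 alternatives, 6 of which left out 1 array each, the 9 chains past the threshold kept their direction and their call wherever they were tested, except COL6A1, COL6A2 and COL5A2 against a minimum fold of 1.5. Under the filter on all 6 arrays COL4A6 was not tested. Without any filter 14 chains passed, 6 of them lower, as did 27 collagen probe sets, because 32 genes and 73 probe sets were then tested. In that fit 32.0% of all 22215 probe sets passed, 15.9% higher and 16.1% lower. Against a minimum fold of 1.5, 8 collagen probe sets and 1 partner gene passed. The shares of all genes and probe sets past this minimum, or past the threshold with 1 array left out, are not given here. Leaving out 1 array gave 9 to 10 chains (6 to 7 higher and 3 lower in each), 14 to 16 collagen probe sets and 22 to 26 partner genes. The difference of COL18A1, which passed in none of these, ran from -0.083 to 0.015 with 1 array left out, turning sign without PSMA replicate 6. That of its second probe set ran from -0.18 to 0.08, turning sign without PSMA replicate 4 (0.083) and without control replicate 2 (0.0092). No paired analysis was possible because the groups share no replicate number. With 3 arrays a group, and GCRMA setting the level of dim probe sets, differences of the 21 dim genes are the least certain.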

Other observations

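Of the type V collagen chains, COL5A1 was higher on arrays labelled PSMA on 3 of 3 probe sets and COL5A2 was lower on 2 of 2. The COL5A1 probe sets were all below the filter (8.89 to 32.3), and their dependence on the background correction was not tested. The third chain, COL5A3, also dim, had log2 differences of 0.34 and -0.04 in the fit without a filter (limma adjusted p = 0.111 and 0.790). Within COL1A1, probe sets 202310_s_at and 202312_s_at have the same source sequence in the platform annotation. On arrays labelled control they read 21.1 to 25.1 and 20.9 to 23.9, and on arrays labelled PSMA 91.0 to 113 and 20.3 to 23.5.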
